A study of Mus musculus with 9 samples.

Results

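The 10 genes described here encode hypoxia factors (*Hif1a*, *Epas1*), the oxygen-dependent enzymes that mark them for destruction (*Egln1*, *Egln3*), glucose carriers (*Slc2a1*, *Slc2a3*), lactate dehydrogenases (*Ldha*, *Ldhb*) and lactate carriers (*Slc16a1*, *Slc16a3*). They were chosen by symbol from the 54232 genes of the count data, and all 10 were measured and passed the filter on low counts in every comparison. Poly(A) RNA was sequenced from mouse pluripotent stem cells of a C57 x CBA line whose GFP reporter is driven by the distal *Oct4* promoter. Naïve mESCs grew in S/L medium (serum with LIF) on feeders. Primed mEpiSCs were converted from them and grew in F/A medium (Fgf2 with Activin A), also on feeders, which were mitomycin C-treated mouse embryonic fibroblasts (MEFs). Both states were sampled at passage 5 (P5) and passage 15 (P15), with 2 libraries per state and passage, and 1 library came from MEFs alone. The groups therefore differ in medium as well as in state, and they come from 1 line. The study calls its repeats of these groups biological. Whether they were separate cultures is not stated, and the p-values measure the spread between these libraries.

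Cells take up glucose through carriers of the Slc2a family and break it down to pyruvate by glycolysis. Lactate dehydrogenase turns pyruvate into lactate, and monocarboxylate transporters of the Slc16a family carry lactate across the cell membrane. HIF-1α and HIF-2α, encoded by *Hif1a* and *Epas1*, pair with ARNT and switch on genes when oxygen is low. Genes that HIF-1α switches on include those of glycolysis, glucose uptake and lactate export. With oxygen present, prolyl hydroxylases of the Egln family modify HIF-1α and HIF-2α, VHL binds them and they are degraded. The main control of HIF thus acts on protein, which RNA counts do not show. Pluripotent stem cells are known for a high rate of glycolysis.

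Total counts were between 14378051 and 20985136 in the 8 naïve and primed libraries and 25646547 in MEFs. Levels are given as CPM, that is, counts relative to a TMM-scaled library total common to the 9 libraries. Log2 fold changes come from the quasi-likelihood test of edgeR, and p-values were adjusted over all genes tested (Benjamini-Hochberg). An adjusted p under 0.01 counts as a call. The state labels were checked against marker genes. The summed level of 8 naïve markers was 2496 to 2535 CPM in naïve and 243 to 244 CPM in primed libraries at P5, and 2095 to 2163 against 110.1 to 114 CPM at P15. The summed level of 7 primed markers was 49.2 to 74.3 CPM in naïve and 781 to 842 CPM in primed libraries. Of 5 endoderm markers, 4 were at 1 CPM or more in every primed library, where the list summed to 125 to 140.3 CPM against 7.23 to 12.6 CPM in naïve libraries. *Afp* was at 0 in the naïve libraries and in primed libraries at P5. The part of endoderm-like cells in the results was not tested. Of 20 fibroblast markers, 19 or 20 were at 1 CPM or more in every library, and they summed to 8270 to 8288 CPM in naïve and 5824 to 5906 CPM in primed cells at P5. At P15 the sums were 13751 to 14173 CPM in naïve and 13591 to 14181 CPM in primed cells, against 71518 CPM in MEFs. The median marker stood at 17.6% to 22.4% of its MEF level in naïve libraries and in primed libraries at P5, and at 28.2% to 32.9% in primed libraries at P15. Single markers ran from 3.56% (*Col1a1*) to 391% (*Dcn*). Results for the 10 genes were therefore also computed with this median share of the MEF counts subtracted. In bulk RNA, fewer cells of a type and less RNA per cell cannot be told apart.

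HIF binds DNA at a short core, ACGTG or GCGTG, and it was sought in the 250 bases before transcript starts that RefSeq lists for the genes. Windows are shown for the lactate dehydrogenase pair and for *Slc16a1* and *Egln3*, the genes whose state difference changed most between the passages. RefSeq (GRCm38.p6) had such windows for 8 of the 10 genes, 2 of them for *Ldha* and 1 for each other gene, and each window held at least 1 match on either strand. The windows of *Ldha*, *Hif1a* and *Slc16a3* lie inside the wider GENCODE bounds of these genes. Of all 32851 windows of that length, 16.6% held ACGTG, 28.2% GCGTG and 38.6% either. The windows of the 8 genes had a GC content of 50.8% to 86.0%. The windows are printed 5′ to 3′ in the direction of the gene, with each match in either orientation in capitals. CACGTG reads as ACGTG on both strands and so counts as 2 matches. It was found in 6.02% of all windows.
*Ldha*: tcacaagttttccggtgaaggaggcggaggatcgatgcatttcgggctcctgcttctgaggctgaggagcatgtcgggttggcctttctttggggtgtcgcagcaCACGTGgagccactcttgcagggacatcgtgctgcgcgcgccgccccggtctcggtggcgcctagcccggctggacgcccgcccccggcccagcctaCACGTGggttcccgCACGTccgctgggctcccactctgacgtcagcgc
*Ldhb*: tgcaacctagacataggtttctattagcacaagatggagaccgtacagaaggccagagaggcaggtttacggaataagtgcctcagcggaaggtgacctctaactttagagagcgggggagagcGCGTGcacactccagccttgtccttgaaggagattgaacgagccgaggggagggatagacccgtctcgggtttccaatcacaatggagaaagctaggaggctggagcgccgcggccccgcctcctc
*Slc16a1*: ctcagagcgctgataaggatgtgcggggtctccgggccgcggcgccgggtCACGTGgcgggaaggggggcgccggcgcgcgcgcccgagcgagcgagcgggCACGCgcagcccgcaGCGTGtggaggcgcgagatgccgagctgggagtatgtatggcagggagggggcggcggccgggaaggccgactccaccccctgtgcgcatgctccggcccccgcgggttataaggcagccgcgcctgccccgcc
*Egln3*: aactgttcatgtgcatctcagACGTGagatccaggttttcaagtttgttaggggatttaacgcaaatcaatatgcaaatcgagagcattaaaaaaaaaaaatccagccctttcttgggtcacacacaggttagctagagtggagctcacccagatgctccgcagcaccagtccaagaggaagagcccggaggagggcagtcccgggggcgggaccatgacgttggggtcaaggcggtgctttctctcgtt
The *Ldha* window shown (chr7:46845554-46845803, plus strand) held 5 matches, 4 of them in 2 copies of CACGTG. The other *Ldha* window (chr7:46846832-46847081) held 1 match, GCGTG, and no CACGTG. The *Ldhb* window (chr6:142507958-142508207, minus strand) held 1, GCGTG. The *Slc16a1* window (chr3:104638414-104638663, plus strand) held 4 matches, of which 2 form a CACGTG. The *Egln3* window (chr12:54203875-54204124, minus strand) held 1, ACGTG. A match is a string of letters and was not tested as a binding site.

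All 10 genes were expressed in every library, and no naïve library overlapped a primed one of the same passage for any of them. The share of all genes that separate in this way is not given here, so this does not set the 10 genes apart. At P5, 5 of the 10 genes were called higher in primed cells and 5 lower, where 31.2% of the 16482 genes tested were called higher and 31.1% lower. At P15, 5 were called higher, 3 lower and 2 were not called, where 28.2% of 15733 genes were called higher and 28.4% lower. Calls with a fold of at least 2 as well went to 3 of the 10 genes at P5 (*Epas1*, *Egln3*, *Slc16a1*), against 22.3% of all genes tested, and to 1 at P15 (*Epas1*), against 23.2%. Most genes tested were thus called at each passage. The shares among the 10 genes and in the gene lists below are read beside that. The split moved with the scaling, since with library size alone 65.8% of the called genes were higher at P5, against 50.1% with TMM. The direction depended on passage for several of the 10 genes. At both passages 3 genes were called higher (*Hif1a*, *Slc16a1*, *Slc16a3*) and 2 lower (*Epas1*, *Ldhb*), while *Egln1*, *Slc2a3* and *Ldha* were called in opposite directions at P5 and P15. The share of all genes called at both passages, in the same direction or in opposite ones, is not given here. Such counts, for the 10 genes and for the gene lists below, thus have no comparison.

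**Figure D1:**
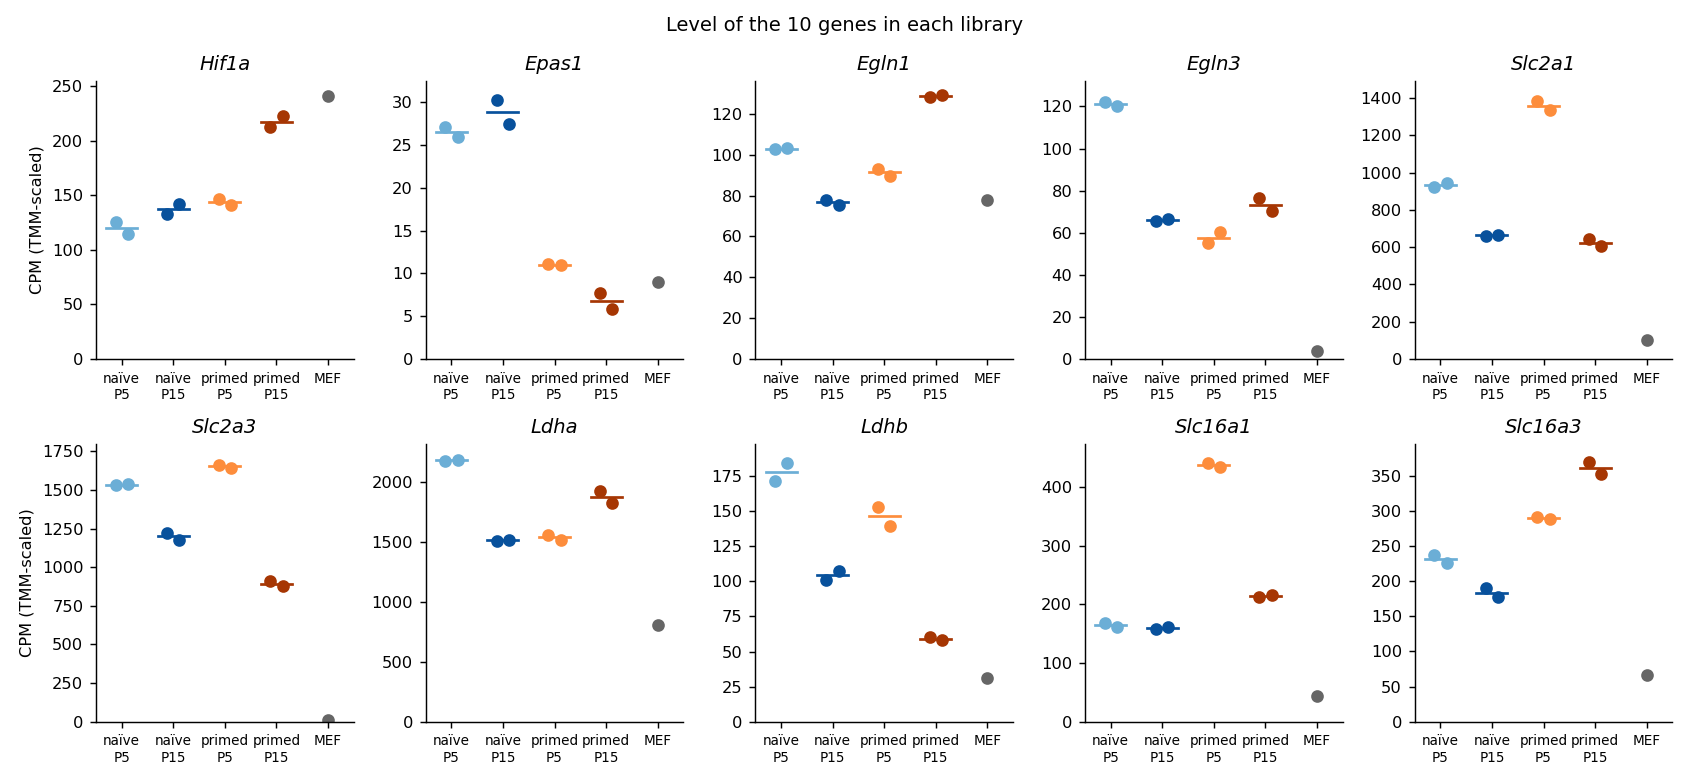
Level of each of the 10 genes in CPM (vertical axes from 0, TMM-scaled) in the 2 naïve and 2 primed libraries of each passage and the 1 MEF library, with lines at the mean of 2. *Slc2a1*, *Slc2a3*, *Ldha*, *Ldhb*, *Slc16a1* and *Egln3* have their highest level in 1 of the P5 groups, *Hif1a*, *Egln1* and *Slc16a3* have their highest pluripotent level in primed cells at P15, and *Hif1a* is the only gene with its highest level in MEFs.

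*Hif1a* RNA was higher in primed than in naïve cells at both passages, and *Epas1* RNA was lower. *Hif1a* (ENSMUSG00000021109, chr12:73901375-73947530, plus strand, GRCm38) encodes the oxygen-regulated subunit of HIF-1. It stood at 125 and 114 CPM in the naïve libraries and 147 and 141 CPM in the primed libraries at P5. At P15 it stood at 133 and 142 CPM in naïve and 213 and 222 CPM in primed libraries. The primed P15 libraries lie above all others, while naïve cells at P15 and primed cells at P5 overlap. The log2 fold change of primed over naïve cells was 0.27 ± 0.05 (SE) (adjusted p = 7.12e-06) at P5 and 0.66 ± 0.06 (adjusted p = 8.50e-12) at P15. MEFs held 241 CPM of *Hif1a*, more than any pluripotent library. RNA of MEF composition at the median marker share would make up 28.6% to 33.4% of the *Hif1a* counts of a group on average. With that share subtracted, the log2 fold change at P15 was 0.88 (adjusted p = 5.72e-05). The antisense gene *Gm15283* shares 330 exonic bases with *Hif1a* and held 9 to 59 counts per library.

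*Epas1* (ENSMUSG00000024140, chr17:86753700-86833410, plus strand) encodes HIF-2α. Its levels were 27.2 and 25.99 CPM in naïve against 11.1 and 10.97 CPM in primed libraries at P5. At P15 they were 30.3 and 27.4 CPM in naïve against 7.73 and 5.86 CPM in primed libraries. Every naïve library held more than 2 times the level of every primed one, and the naïve libraries of the 2 passages lie side by side, between 25.99 and 30.3 CPM. Primed cells differed from naïve cells on the log2 scale by -1.26 ± 0.10 (adjusted p = 1.95e-12) at P5 and -2.08 ± 0.14 (adjusted p = 4.06e-16) at P15, or 2.40-fold and 4.23-fold lower. MEFs held 8.97 CPM, and MEF RNA at the median share would make up 35.8% of the *Epas1* counts of primed cells at P15 and 5.59% to 13.9% in the other groups. With that share subtracted the log2 fold changes were -1.36 and -2.44. Per length, *Epas1* was the lowest of the 10 genes in each of the 4 groups, with a mean of 13.7 ± 0.2 TPM (SD, n = 2) in naïve and 6.82 ± 0.09 TPM in primed cells at P5.

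The state difference of both *Egln1* and *Egln3* changed with passage. *Egln1* (ENSMUSG00000031987, chr8:124908587-124949324, minus strand), the main HIF prolyl hydroxylase of most cells, stood at 103 and 103 CPM in naïve and 93.1 and 89.6 CPM in primed libraries at P5. At P15 it stood at 78.0 and 75.4 CPM in naïve and 128 and 129 CPM in primed libraries. The order of the states is reversed between the passages. In log2 units, primed over naïve, the difference was -0.17 ± 0.05 (adjusted p = 0.00171) at P5 and 0.75 ± 0.07 (adjusted p = 1.66e-12) at P15. The small difference at P5 was not called by DESeq2 (-0.18, adjusted p = 0.0233), with the feeder share subtracted (-0.17, adjusted p = 0.0121) or without primed replicate 1 or 2 (-0.17 and -0.12, adjusted p = 0.0134 and 0.0749), and its sign turned to 0.03 with library size alone.

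*Egln3* (ENSMUSG00000035105, chr12:54178981-54203860, minus strand), whose RNA is itself induced by HIF, stood at 122 and 120.1 CPM in naïve against 55.1 and 60.2 CPM in primed libraries at P5. At P15 it stood at 65.7 and 66.4 CPM in naïve and 76.4 and 70.4 CPM in primed libraries. The naïve P5 libraries stand far above the rest, which lie between 55.1 and 76.4 CPM. The log2 fold change was -1.07 ± 0.05 at P5 (adjusted p = 1.31e-17). At P15 the value was 0.16 ± 0.07 and was not called (adjusted p = 0.0542). With library size alone it was called (0.26, adjusted p = 0.00230). MEFs held 3.84 CPM.

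Of 14 further genes of oxygen sensing, 4 were called higher and 3 lower in primed cells at P5, and 4 higher and 4 lower at P15, with medians of -0.04 and -0.16 on the log2 scale beside 0.01 and -0.004 over all genes tested. *Hif3a*, which encodes the third HIF α subunit, stood at 13.9 and 13.5 CPM in naïve and 51.7 and 46.3 CPM in primed libraries at P5. It was called higher at both passages, with log2 fold changes of 1.84 ± 0.08 and 1.76 ± 0.11. The partner subunits diverged. *Arnt*, at 102 and 101 CPM in naïve and 73.6 and 76.5 CPM in primed libraries at P5, was called lower at both passages (-0.43 ± 0.05 and -0.50 ± 0.07), whereas *Arnt2*, found mainly in neural tissue, was higher by 1.05 on the log2 scale at both passages (SE 0.12 and 0.15) at levels of 6.86 to 20.3 CPM. *Hif1an*, the asparagine hydroxylase that blocks HIF activity, was called lower at P15 (-0.45 ± 0.08), with a value of -0.14 ± 0.05 at P5. *Egln2*, the third prolyl hydroxylase, was called higher at P15 (0.25 ± 0.08), with -0.10 ± 0.06 at P5. *Vhl*, at 24.6 to 29.5 CPM in the 8 libraries, was called at neither passage, with values of 0.01 ± 0.08 and -0.15 ± 0.10.

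The glucose carriers were the most abundant of the 10 genes after *Ldha* per length, in TPM, in each of the 4 groups. Both were called higher in primed cells at P5, and at P15 neither was. *Slc2a1* (ENSMUSG00000028645, chr4:119108711-119137983, plus strand) encodes GLUT1, the carrier of basal glucose uptake. It stood at 924 and 944 CPM in naïve and 1384 and 1335 CPM in primed libraries at P5. At P15 it stood at 662 and 665 CPM in naïve and 642 and 605 CPM in primed libraries. The 4 P15 libraries lie below every P5 library. Primed cells differed from naïve cells on the log2 scale by 0.54 ± 0.03 at P5 (adjusted p = 2.11e-15), a rise of 1.46-fold. At P15 the value was -0.09 ± 0.05 and was not called (adjusted p = 0.157), and its sign turned with the feeder share subtracted (0.08) and with library size alone (0.02). The antisense gene *Gm12868* shares 105 exonic bases with *Slc2a1* and held 1 to 26 counts per library.

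*Slc2a3* (ENSMUSG00000003153, chr6:122727809-122801640, minus strand) encodes GLUT3, a carrier of high affinity. Its levels were 1531 and 1537 CPM in naïve and 1664 and 1639.5 CPM in primed libraries at P5, and 1219 and 1178 CPM against 908 and 881 CPM at P15. Primed cells thus hold both the highest and the lowest level. In log2 units, primed over naïve, the difference was 0.11 ± 0.03 (adjusted p = 0.00171) at P5 and -0.42 ± 0.05 (adjusted p = 9.08e-09) at P15. The P5 difference was not called in a fit of all 8 libraries (0.10, adjusted p = 0.0206) or without naïve replicate 1 or 2 (0.08 and 0.09, adjusted p = 0.0859 and 0.0601), and the P15 difference was not called with the feeder share subtracted (-0.24, adjusted p = 0.0115). MEFs held 13.5 CPM. A stretch of 196 of the 6253 bases of the longest transcript matches 60 other genes at 95% identity or more. Those genes together held up to 65611 counts in a library, against at most 32991 for *Slc2a3*, so counts in the stretch are uncertain. *Slc2a3* lies beside the pluripotency genes *Nanog* and *Dppa3* on chromosome 6. *Nanog*, whose product is a core pluripotency factor, fell from a mean of 380.4 to 94.5 CPM at P5 and from 389 to 252 CPM at P15, with log2 fold changes of -2.01 and -0.62.

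Of 12 other glucose carriers, 10 could be tested at P5 and 8 at P15. At P5, 3 were called higher in primed cells and 1 lower, and at P15, 4 higher and 0 lower by edgeR and by DESeq2, with 0 lower at an unadjusted p under 0.05. None had a mean of 10 CPM over the 8 libraries with calls at both passages in 1 direction. *Slc2a12* (GLUT12), singled out after its values were seen because it was called higher at both, stood at 0.25 to 0.66 CPM in naïve and 3.13 to 6.46 CPM in primed libraries, and its transcript matches 1 other gene that held up to 1083 counts in a library, so its level is uncertain.

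The lactate dehydrogenase genes were both lower in primed cells at P5 and moved apart at P15. *Ldha* (ENSMUSG00000063229, chr7:46841475-46855627, plus strand) encodes the M subunit, which favours making lactate from pyruvate. It stood at 2182 and 2187 CPM in naïve and 1564 and 1515 CPM in primed libraries at P5. At P15 it stood at 1509.5 and 1522 CPM in naïve and 1927 and 1828 CPM in primed libraries. The state with more *Ldha* RNA therefore switched from naïve to primed. The log2 fold change was -0.50 ± 0.03 at P5 (adjusted p = 4.03e-15), or 1.42-fold lower, and 0.31 ± 0.05 at P15 (adjusted p = 2.01e-06), or 1.24-fold higher. Both calls held under every alternative tried. Among all genes ranked by TPM, *Ldha* stood between rank 65 and rank 111 in the 4 groups.

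*Ldhb* (ENSMUSG00000030246, chr6:142490249-142507957, minus strand) encodes the H subunit, which favours the return of lactate to pyruvate. Its levels were 171 and 185 CPM in naïve against 153 and 139 CPM in primed libraries at P5. At P15 they were 101 and 107 CPM in naïve against 60.3 and 58.1 CPM in primed libraries. The 4 groups do not overlap. Primed cells differed from naïve cells on the log2 scale by -0.28 ± 0.05 (adjusted p = 3.56e-06) at P5 and -0.81 ± 0.07 (adjusted p = 8.23e-13) at P15. With library size alone the P5 value was -0.08 and not called (adjusted p = 0.151). The transcripts of *Ldha* and *Ldhb* match 5 and 1 other genes, which together held at most 5 and 9 counts in a library, though reads from the shared stretches cannot be assigned with certainty.

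Both lactate carriers were higher in primed cells at each passage, *Slc16a1* most at P5 and *Slc16a3* most at P15. *Slc16a1* (ENSMUSG00000032902, chr3:104638668-104658462, plus strand) encodes MCT1, which carries lactate in either direction. It stood at 169 and 161 CPM in naïve and 440.4 and 435 CPM in primed libraries at P5. At P15 it stood at 158 and 161 CPM in naïve and 212 and 216 CPM in primed libraries. The 4 naïve libraries lie within 158 to 169 CPM, and the primed P5 libraries are more than 2 times any of them. In log2 units, primed over naïve, the difference was 1.41 ± 0.04 at P5 (adjusted p = 7.69e-24), or 2.66-fold, and 0.43 ± 0.06 at P15 (adjusted p = 8.86e-08), or 1.35-fold. *Slc16a3* (ENSMUSG00000025161, chr11:120948480-120960868, plus strand) encodes MCT4, the lactate exporter of glycolytic cells. It stood at 238 and 227 CPM in naïve and 291 and 289 CPM in primed libraries at P5, and at 191 and 177 CPM against 369 and 353 CPM at P15. The log2 fold change was 0.32 ± 0.04 (adjusted p = 5.81e-09) at P5 and 0.98 ± 0.06 (adjusted p = 5.13e-17) at P15, or 1.25-fold and 1.97-fold. The calls for both carriers held under every alternative tried.

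Monocarboxylate transporters reach the cell surface with a chaperone, basigin (*Bsg*) or embigin (*Emb*). *Emb* stood at 151 and 146 CPM in naïve and 496 and 496 CPM in primed libraries at P5, and at 148 and 151 CPM against 295 and 291 CPM at P15. Primed cells exceeded naïve cells by 1.74 ± 0.04 and 0.97 ± 0.06 on the log2 scale, and the drop between the passages was called (-0.76 ± 0.06), as it was for *Slc16a1*. *Bsg* was the more abundant in CPM, at 603 to 756 CPM in the 8 libraries, and was called higher at P15 (0.28 ± 0.05) with a value of 0.08 ± 0.03 at P5. Among 19 genes tested of lactate and pyruvate handling, 3 were called higher and 10 lower in primed cells at P5, and 4 higher and 7 lower at P15, with medians of -0.17 and -0.10. *Pdk1*, a kinase that inhibits pyruvate dehydrogenase and so holds pyruvate back from oxidation in mitochondria, was called lower at both passages, from 265 and 267 CPM to 108 and 111 CPM at P5 (-1.28 ± 0.04) and from 223 and 231 CPM to 98.6 and 98.4 CPM at P15 (-1.20 ± 0.06). *Pdk4*, a related kinase, was also lower at both (-0.74 ± 0.10 and -1.38 ± 0.17).

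**Figure D2:**
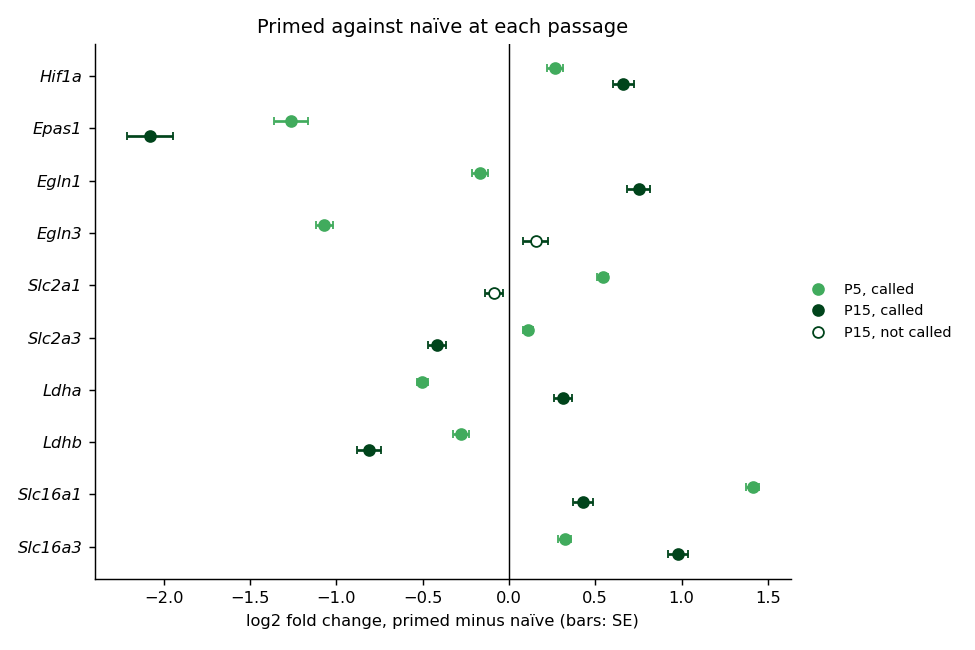
Log2 fold change of primed over naïve cells (horizontal axis, bars are SE) of each gene at P5 and P15, each from 4 libraries, with filled points called at an adjusted p under 0.01 and open points not called. *Epas1* lies lowest at P15 (-2.08), *Slc16a1* highest at P5 (1.41), and *Egln1*, *Slc2a3* and *Ldha* lie on opposite sides of 0 at the 2 passages.

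Between P5 and P15 naïve cells lost RNA of 7 of the 10 genes and gained 0, whereas primed cells gained 5 and lost 5. In naïve cells the called genes were *Egln3* (log2 fold change -0.88 ± 0.05), *Ldhb* (-0.77 ± 0.05), *Ldha* (-0.53 ± 0.04), *Slc2a1* (-0.49 ± 0.04), *Egln1* (-0.43 ± 0.05), *Slc2a3* (-0.36 ± 0.04) and *Slc16a3* (-0.34 ± 0.05). Here 5.01% of 15683 genes were called lower and 4.21% higher. By DESeq2, 7 of the 10 genes were called lower and 0 higher, and 1 was higher at an unadjusted p under 0.05. *Hif1a* (0.20 ± 0.06, adjusted p = 0.0278), *Epas1* (0.11 ± 0.09, adjusted p = 0.410) and *Slc16a1* (-0.05 ± 0.05, adjusted p = 0.556) were not called, though *Hif1a* was with a replicate block (adjusted p = 0.000482) or without naïve P5 replicate 1 (adjusted p = 0.00890).

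In primed cells, where 24.3% of 15957 genes were called higher and 22.8% lower at P15, *Ldhb*, *Slc2a1* and *Slc16a1* fell most. With library size alone, 34.2% of the called genes were higher at P15, against 51.5% with TMM. The log2 fold changes were -1.30 ± 0.06 for *Ldhb*, -1.12 ± 0.05 for *Slc2a1*, -1.02 ± 0.05 for *Slc16a1*, -0.88 ± 0.04 for *Slc2a3* and -0.69 ± 0.15 for *Epas1*. The last was not called by DESeq2 (-0.69, adjusted p = 0.0170) or with the feeder share subtracted, where its size was larger (-0.92, adjusted p = 0.0105). The genes that rose were *Hif1a* (0.61 ± 0.05), *Egln1* (0.50 ± 0.06), *Egln3* (0.36 ± 0.07), *Slc16a3* (0.32 ± 0.05) and *Ldha* (0.30 ± 0.04). *Egln1*, *Egln3*, *Ldha* and *Slc16a3* were called lower with passage in naïve cells and higher in primed cells, while *Slc2a1*, *Slc2a3* and *Ldhb* were called lower in both.

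Whether the state difference itself changed with passage was tested in 1 fit of the 8 libraries with an interaction of state and passage. All 10 genes were called, 5 in each direction, where 24.1% of 16926 genes were called, 13.3% higher and 10.8% lower. With library size alone 35.2% of the called genes were higher, against 55.0% with TMM, and all 10 genes kept their sign and call. The change ran from -0.97 for *Slc16a1* to 1.24 for *Egln3* on the log2 scale. It was toward primed cells for *Hif1a*, *Egln1*, *Egln3*, *Ldha* and *Slc16a3* and toward naïve cells for *Epas1*, *Slc2a1*, *Slc2a3*, *Ldhb* and *Slc16a1*. Of the 10 calls, 9 held under all 14 alternatives, and that of *Epas1* was lost without primed P15 replicate 2 (-0.61, adjusted p = 0.0104). The summed fibroblast markers stood higher at P15 than at P5 in both states, and the summed naïve markers of primed cells stood lower, at 110.1 to 114 CPM against 243 to 244 CPM. In primed cells 3 pluripotency genes shared by both states summed to 489 to 492 CPM at P5 and 833 to 884 CPM at P15, with *Pou5f1* (Oct4) at a mean of 214 and 590 CPM. Of the endoderm markers, *Gata4* stood at 36.2 and 6.75 CPM, *Gata6* at 24.7 and 18.1 CPM and *Sox17* at 29.2 and 16.1 CPM. *Foxa2* went the other way, at 48.8 and 86.6 CPM. The endoderm list summed to 137.6 to 140.3 CPM in primed cells at P5 and 125.2 to 129.9 CPM at P15. Of 4 trophoblast markers, *Krt7* stood at 30.5 and 11.2 CPM in primed cells at P5 and P15. The others were low there, with *Cdx2* at 0.37 and 0.28 CPM, *Hand1* at 1.34 and 0.20 CPM and *Elf5* at 0.13 and 0 CPM. All 10 changes kept their sign and call with the median feeder share subtracted, and the part of the other markers was not tested. The fibroblast markers differ on that share, at 10.7% to 11.7% for *Col1a1* and 375% to 391% for *Dcn* in primed libraries at P15. Subtraction at the share of a single marker was not tested. The labels do not give dates, so a batch that went with passage cannot be told apart from passage.

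**Figure D3:**
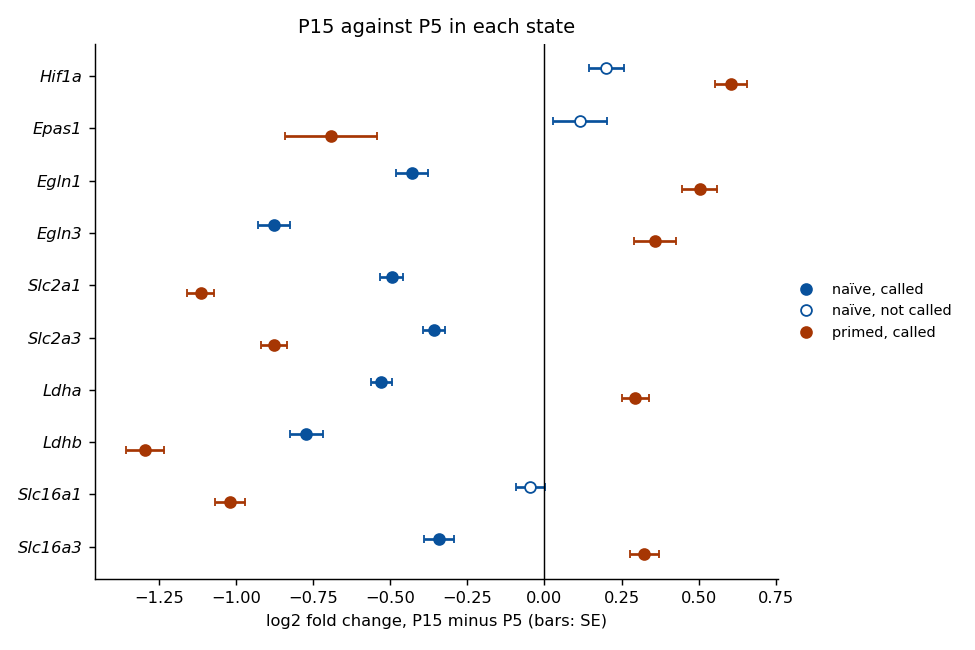
Log2 fold change of P15 over P5 (horizontal axis, bars are SE) of each gene in naïve and in primed cells, each from 4 libraries, with filled points called at an adjusted p under 0.01. *Egln1*, *Egln3*, *Ldha* and *Slc16a3* lie left of 0 in naïve and right of 0 in primed cells.

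The balance within each pair was described per length, from TPM over the union of annotated exons, and was not tested. *Ldha* exceeded *Ldhb* 5.83 ± 0.30 times (SD, n = 2) in naïve and 5.004 ± 0.225 times in primed cells at P5. At P15 the ratio was 6.90 ± 0.26 in naïve and 15.05 ± 0.16 in primed cells, so that *Ldhb* made up 6.23% of the pair in late primed cells against 12.7% to 16.7% in the other groups. The *Slc2a1* to *Slc2a3* ratio was 1.26 ± 0.02 and 1.14 ± 0.03 in naïve and 1.70 ± 0.03 and 1.44 ± 0.03 in primed cells at P5 and P15. *Slc2a1* was the larger in every library.

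The carrier of the larger RNA level switched between the lactate carriers. The *Slc16a1* to *Slc16a3* ratio was 0.85 and 1.05 in naïve cells at P5 and P15, 1.81 in primed cells at P5 and 0.71 in primed cells at P15, with SDs between 0.00016 and 0.068. *Egln3* was above *Egln1* in naïve cells (ratio of *Egln1* to *Egln3* 0.63 ± 0.01 at P5 and 0.86 ± 0.03 at P15) and below it in primed cells (1.18 ± 0.11 and 1.30 ± 0.09). *Hif1a* exceeded *Epas1* 4.27 ± 0.15 and 4.54 ± 0.53 times in naïve cells, 12.4 ± 0.2 times in primed cells at P5 and 31.0 ± 7.0 times in primed cells at P15. With the length of the longest transcript, the *Ldha* to *Ldhb* ratios were 8.83, 7.58, 10.5 and 22.8 in naïve P5, primed P5, naïve P15 and primed P15 cells. The *Slc16a1* to *Slc16a3* ratio of naïve cells at P15 was then 0.85, below 1.

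**Figure D4:**
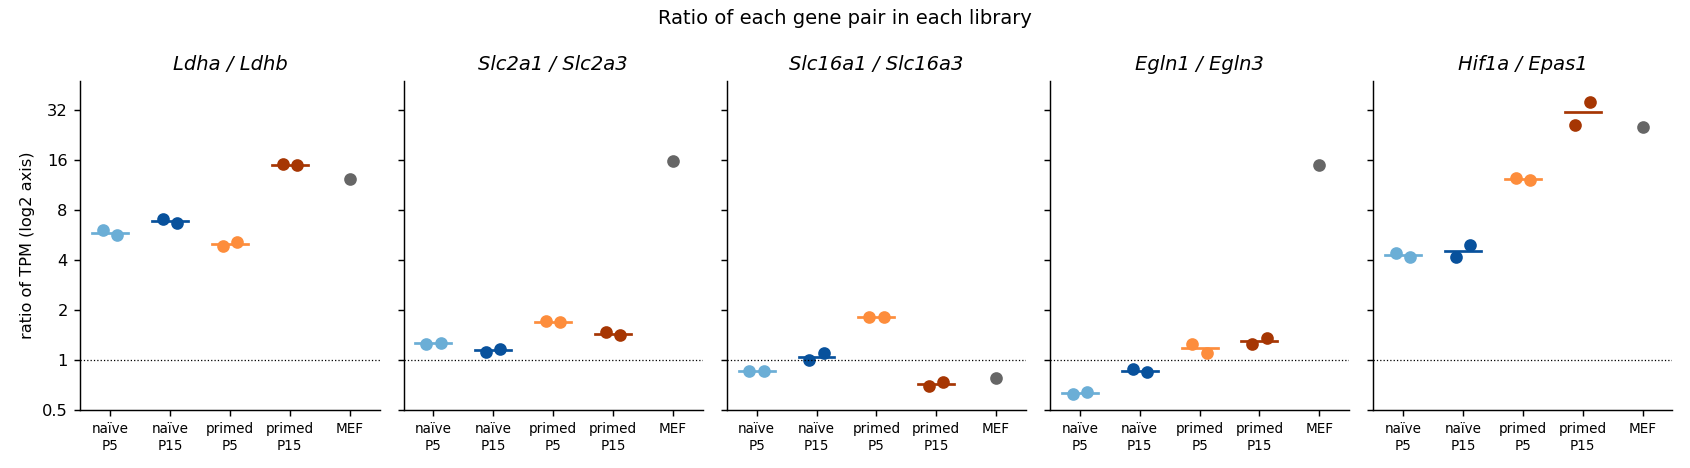
Ratio of TPM within each of 5 gene pairs (vertical log2 axis) in each naïve, primed and MEF library, with lines at the mean of 2 and a dotted line at 1. The *Ldha* to *Ldhb* and *Hif1a* to *Epas1* ratios are highest among pluripotent groups in primed cells at P15 (15.05 and 31.0), and the *Slc16a1* to *Slc16a3* ratio is highest in primed cells at P5 (1.81).

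The glycolytic enzymes were mostly lower in primed cells at P5 and split evenly at P15. Of 25 enzymes tested, 14 were called lower and 6 higher in primed cells at P5. Their median log2 fold change was -0.37 beside 0.01 over all genes tested. At P15, 6 were called lower and 8 higher, with a median of 0.02. Of these enzymes, 8 were called lower at P5 and not called at P15, 4 were lower and 5 higher at both, and *Pfkl*, *Tpi1* and *Eno3* were called in opposite directions. From P5 to P15, 14 of 25 were called lower and 2 higher in naïve cells, with a median of -0.35, against 6 and 6 of 24 in primed cells. Of all genes tested, 5.01% were called lower and 4.21% higher in naïve cells, and 22.8% lower and 24.3% higher in primed cells. The state difference changed toward primed cells for 11 and toward naïve cells for 1 (*Eno3*, named after its values were seen), where 13.3% and 10.8% of all genes were called. *Ldha* moved the same way as these 11.

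Single enzymes kept their direction at both passages. *Hk2*, which traps glucose in the cell and is a known HIF target, stood at 385 and 381 CPM in naïve and 228 and 232 CPM in primed libraries at P5, and was called lower at both passages (-0.73 ± 0.04 and -0.58 ± 0.06). *Pfkp*, the platelet form of phosphofructokinase, was lower (-1.20 ± 0.04 and -1.45 ± 0.08), as was *Tigar*, a phosphatase that slows glycolysis (-1.23 ± 0.07 and -1.45 ± 0.09). *Pfkfb3*, whose product stimulates phosphofructokinase, was higher (0.30 ± 0.05 and 0.79 ± 0.09), as was the neural enolase *Eno2* (1.16 ± 0.08 and 0.93 ± 0.12) at 12.2 to 37.3 CPM. *Gapdh* transcripts match 144 other gene IDs, which makes the *Gapdh* count uncertain.

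The genes listed as hypoxia targets showed no common direction. Of 29 tested, 8 were called higher and 15 lower in primed cells at P5 (median -0.18), and 13 higher and 8 lower at P15 (median 0.13). At both passages, 7 were higher and 8 lower. *Vegfa*, the angiogenic growth factor often read as a sign of HIF activity, stood at 147 to 149 CPM in the 4 P5 libraries and 113 to 131 CPM in the 4 P15 libraries, and was called at neither passage (0.01 ± 0.04 and -0.11 ± 0.07). *Tfrc*, the transferrin receptor, fell by 1.78 and 1.77 on the log2 scale, and *Angptl4*, a secreted inhibitor of lipoprotein lipase, rose by 1.29 and 1.65.

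The state difference of the listed hypoxia genes changed with passage in 1 direction. It was called toward primed cells for 14 of 29 genes and toward naïve cells for 0, with a median of 0.38 beside -6.5e-05 over all genes, where 13.3% and 10.8% of all genes were called. By edgeR 1 gene went toward naïve cells at an unadjusted p under 0.05, and by DESeq2 the calls were 11 toward primed and 0 toward naïve cells. Of the 10 genes, *Hif1a*, *Egln1*, *Egln3*, *Ldha* and *Slc16a3* moved toward primed cells too. *Epas1*, *Slc2a1*, *Slc2a3*, *Ldhb* and *Slc16a1* moved toward naïve cells. Naïve cells lost RNA of 11 of the 29 and gained 1 from P5 to P15, where 5.01% of all genes were called lower and 4.21% higher. Primed cells gained 10 and lost 5, where 24.3% were called higher and 22.8% lower. These lists share *Hk2*, *Pfkfb3*, *Pfkfb4*, *Pdk1* and *Egln2* among them. *Egln2*, a gene of oxygen sensing, thus counts among the 29 here. Its state difference is 1 of the 14 called toward primed cells (0.36 ± 0.10, adjusted p = 0.00356 by edgeR).

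**Figure D5:**
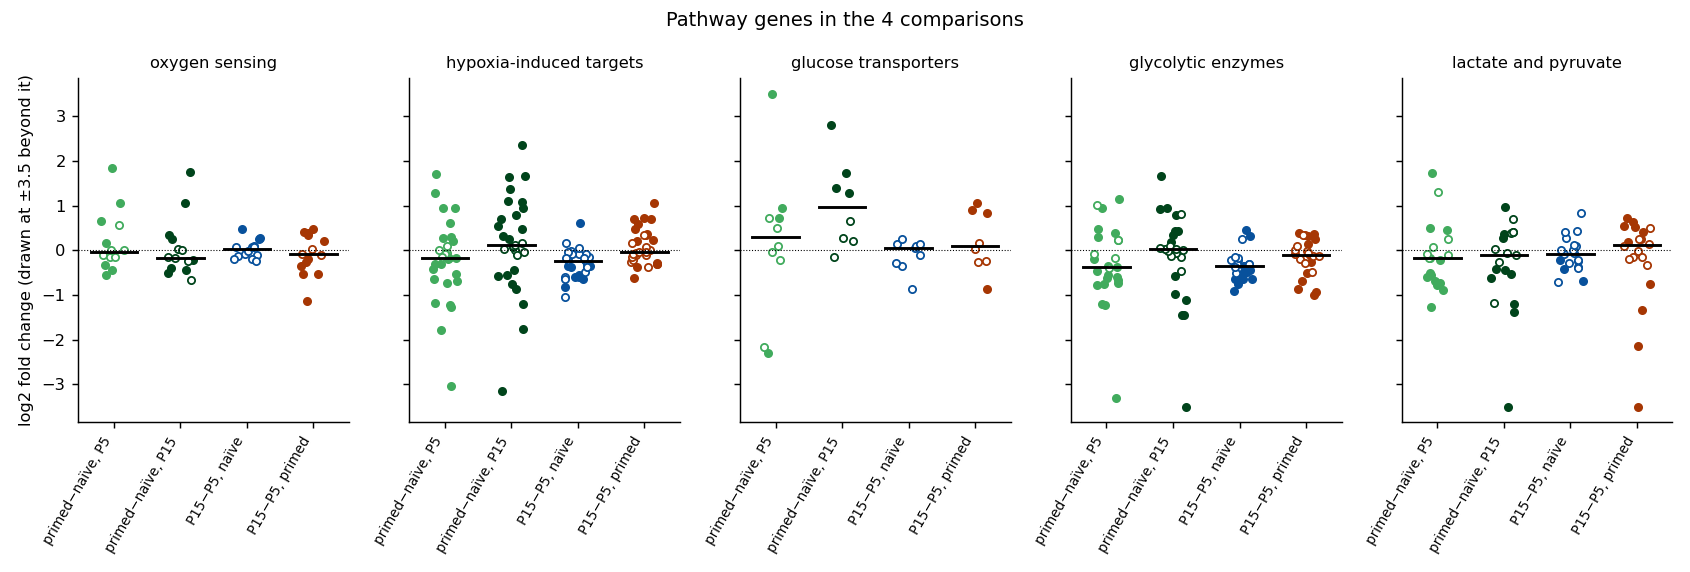
Log2 fold changes (vertical axis, values beyond 3.5 drawn at 3.5) of the genes tested of 5 pathway lists in 4 comparisons, with filled points called at an adjusted p under 0.01, open points not called and lines at the median. The medians of the glycolytic enzymes are -0.37 and 0.02 for primed over naïve cells at P5 and P15 and -0.35 for P15 over P5 in naïve cells.

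*Epas1* was the gene with a fold of at least 2 between the states at both passages, so the genes most like it were sought among 9998 genes of at least 10 CPM on average. Likeness was the root mean square difference of log2(CPM + 1), each gene centred on its mean, over the 8 naïve and primed libraries. The nearest were *Pura* (0.09), which encodes a DNA- and RNA-binding protein, *Klf8* (0.10), a zinc finger factor, and *Zbtb8a* (0.11). Their means in naïve P5, primed P5, naïve P15 and primed P15 cells were 40.4, 15.8, 40.8 and 11.6 CPM for *Pura*, 15.9, 5.69, 16.5 and 3.86 CPM for *Klf8* and 32.4, 13.3, 36.7 and 9.44 CPM for *Zbtb8a*. The 8 libraries share 4 groups, so likeness rests mostly on 4 means.

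The MEF library, which has no replicate, held less of 7 of the 10 genes than any naïve or primed library. The share of all genes lower in MEFs in this way is not given here, so the count has no comparison. *Egln3* stood at 3.84 CPM and *Slc2a3* at 13.5 CPM there, against at least 55.1 and 881 CPM in pluripotent libraries. *Slc2a1* stood at 103 CPM, *Ldha* at 809 CPM, *Ldhb* at 31.0 CPM, *Slc16a1* at 43.1 CPM and *Slc16a3* at 66.8 CPM. *Hif1a* was higher in MEFs, *Epas1* lay within the range of primed cells, and *Egln1*, at 77.7 CPM, lay within the naïve P15 range.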

How the data were processed

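Poly(A) RNA libraries of naïve mESCs, primed mEpiSCs and MEFs were used, 9 in all, grouped by the state and passage in their titles. The deposited values are raw counts per gene. Per the study's methods the authors trimmed reads with Cutadapt, aligned them to mm10 with HISAT2, which could report several alignments per read, and counted them with featureCounts on an Ensembl annotation. The strand setting and the treatment of such reads in counting are not given in the sources used here. Names and coordinates came from GENCODE M21 (GRCm38), which named 54165 of 54232 IDs, and 92 spike-in entries without counts were left out. The other 67 IDs held 0.0042% to 0.0053% of counts. Where 2 IDs share a symbol, the one with more counts was used.

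Computations used R 4.3.3, edgeR 4.0.16, DESeq2 1.42.0 and pandas 2.3.3. Each of 4 comparisons was fitted on its own 4 libraries by edgeR's quasi-likelihood test (two-sided) after TMM scaling, on genes with at least 10 counts in at least 2 libraries. The change of the state effect was fitted on 8 libraries. TPM used the union of annotated exons, with the longest transcript as alternative. Transcripts were compared by BLAST 2.17.0 for matches of at least 100 bases at 95% identity. The biological coefficient of variation was 3.26% to 4.79%. Total counts of 14378051 to 25646547 put a count of 3, the most that a count of 0 allows, at 0.117 to 0.209 CPM, for counting error only. Library pairs of a group differed by more than counting noise (mean chi-square per gene 2.10 to 3.28). On simulated counts for the P5 comparison (16137 genes) the test recovered 88.0% of genes changed 1.5-fold and 100.0% of those changed 2-fold. At 1.5-fold it recovered 94% for the P15 comparison, 86% for naïve passage and 82% for primed passage. For the change of the state effect (16348 genes) it recovered 68% of genes raised 1.5-fold and 90% of those raised 2-fold. The simulation used the same spread for every comparison, not the measured spread of each, and changed only genes of higher counts. The recovered shares describe the simulated counts only and do not rank the comparisons.

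As alternatives, edgeR was run on library size alone, on the size factors of DESeq2, without the low-count filter, as 1 fit of all 8 libraries and with a replicate block. Others were DESeq2's Wald test, the median fibroblast marker share of the MEF counts subtracted, and each library left out in turn. Same-numbered libraries did not deviate together (correlations of -0.086 to 0.053), so the main fits have no block. Named beside the 10 genes are *Hif1an*, *Egln2*, *Vhl*, *Arnt*, *Bsg*, *Pdk1*, *Hk2*, *Pfkfb3* and *Vegfa*, and in each list the 3 genes with the widest change called at both passages in 1 direction at 10 CPM or more on average, taking the smaller of the 2 changes. A gene that this rule names is not reported here. The genes most like a member were sought for members called with at least 2-fold at both passages. The members and lists were chosen with earlier results of these data known.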

Additional observations from a re-analysis of the deposited data

Results flagged for a closer look

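The difference between primed and naïve cells differed between P5 and P15 for all 10 genes, by the interaction of state and passage in edgeR's quasi-likelihood test with adjustment over 16926 genes. On the log2 scale, as the effect at P15 minus that at P5, the change was 0.41 for *Hif1a* (adjusted p = 8.49e-05), -0.80 for *Epas1* (adjusted p = 0.000372), 0.94 for *Egln1* (adjusted p = 2.23e-11) and 1.24 for *Egln3* (adjusted p = 5.52e-13). It was -0.61 for *Slc2a1* (adjusted p = 2.06e-10), -0.51 for *Slc2a3* (adjusted p = 1.76e-09), 0.83 for *Ldha* (adjusted p = 2.53e-14) and -0.52 for *Ldhb* (adjusted p = 9.83e-06). It was -0.97 for *Slc16a1* (adjusted p = 2.70e-13) and 0.67 for *Slc16a3* (adjusted p = 1.21e-09). Of all genes tested, 24.1% were called in this comparison. Groups of 2 libraries are too small for a check of single outlying libraries.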

How the results depend on the processing

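Of 580 values of the 10 genes under the alternatives, 564 kept their side of the threshold and any called direction, 12 lost a call, 3 gained one and 1 reversed, that of *Egln1* at P5 with library size alone (0.0333 on the log2 scale). Among values never called, that of *Slc2a1* at P15 changed sign with library size alone (0.0187) and with the feeder share subtracted (0.0759). With library size alone the median of all genes was 0.21 for primed over naïve cells at P5, 0.10 at P15, -0.13 for P15 over P5 in primed cells and -0.11 for the change of the state effect, against 0.01, -0.004, -0.001 and -6.5e-05 with TMM. Genes called numbered 10274 at P5, 8899 at P15, 1446 for naïve passage, 7518 for primed passage and 4079 for the change of the state effect. With each library left out in turn they ranged from 8168 to 9342, 7303 to 7644, 1126 to 1385, 5591 to 7386 and 2930 to 3770. For naïve passage the count was 551 without the low-count filter, 944 by DESeq2, 933 with the feeder share subtracted and 2783 with the replicate block. For primed passage it was 4980 by DESeq2. The causes were not tested. The replicate block gave 10225, 7836, 8312 and 3738 genes in the other comparisons, and among the 10 genes it changed only the call of *Hif1a* in naïve passage (adjusted p = 0.000482). Of 580 counts from the pathway lists, 489 stayed within 1.5 times and 91 did not. Group means of TPM moved by more than 1 SD with the longest transcript for 37 of 40. With 2 libraries per group, small differences such as those of *Egln1* and *Slc2a3* at P5 are uncertain. With each library left out in turn, the log2 fold change at P5 ran from -0.20 to -0.12 for *Egln1* and from 0.08 to 0.15 for *Slc2a3*.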
